A study of Rattus norvegicus with 25 samples.

Results

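The T cell genes examined here are a list of 43 genes that encode the T cell receptor complex, its co-receptors and signalling proteins, and the co-stimulatory, inhibitory and cytokine receptors and transcription factors of T lymphocytes. A gene was kept when 1 of its probes, named through its RefSeq accession, was well above background on at least 5 of 25 arrays, which left 36 of the 43 genes among 12343 genes tested in all. The arrays measured RNA of esophageal epithelium in 25 rats, all males of the inbred strain F344, in 5 groups of 5. Control rats ate a normal diet and had no carcinogen. The NMBA rats ate the same kind of diet and were given N-nitrosomethylbenzylamine, or NMBA, a carcinogen of the rat esophagus. In the 3 remaining groups NMBA was combined with a diet containing alpha-tocopherol, delta-tocopherol or a gamma-enriched tocopherol mixture. Tocopherols are forms of vitamin E, and alpha-tocopherol carries more methyl groups on its chromanol ring than gamma-tocopherol, which carries more than delta-tocopherol. All groups share strain, sex and tissue, and all but Control share NMBA. The labels name no dose, route, age or time.

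T cells recognise peptides held by MHC molecules through a receptor whose antigen-binding chains signal only together with the invariant CD3 chains, encoded by Cd3d, Cd3e, Cd3g and Cd247. CD4 or CD8 bind the same MHC molecule and bring the kinase Lck to the CD3 chains, after which Zap70 and the adaptor Lat pass the signal on, and co-stimulatory and inhibitory receptors raise or lower the response. In squamous epithelia such as that of the esophagus, T cells lie in the lamina propria and between the epithelial cells. In a tissue sample, fewer cells of a type and less RNA per cell cannot be told apart, and this holds for every difference below.

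The promoters of the 4 CD3 chains are shown because these 4 genes moved together in the comparisons that follow. Of the 43 listed genes 34 had an entry in the RefSeq promoter table (build GRCr8), and 29 of these were tested. Each line gives the 250 bases before the annotated start, 5′ to 3′ on the gene's own strand.
Cd3d, chr8:54185269-54185518, plus strand: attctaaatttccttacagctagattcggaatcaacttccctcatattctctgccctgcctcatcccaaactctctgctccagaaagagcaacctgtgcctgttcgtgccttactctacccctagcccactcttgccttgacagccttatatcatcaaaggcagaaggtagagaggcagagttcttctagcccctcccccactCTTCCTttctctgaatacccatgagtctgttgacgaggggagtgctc
Cd3g, chr8:54183919-54184168, minus strand: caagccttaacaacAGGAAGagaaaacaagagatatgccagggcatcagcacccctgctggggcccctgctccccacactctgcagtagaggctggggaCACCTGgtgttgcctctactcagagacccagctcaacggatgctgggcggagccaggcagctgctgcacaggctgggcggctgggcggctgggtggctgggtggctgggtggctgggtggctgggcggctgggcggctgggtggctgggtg
Cd3e, chr8:54211771-54212020, minus strand: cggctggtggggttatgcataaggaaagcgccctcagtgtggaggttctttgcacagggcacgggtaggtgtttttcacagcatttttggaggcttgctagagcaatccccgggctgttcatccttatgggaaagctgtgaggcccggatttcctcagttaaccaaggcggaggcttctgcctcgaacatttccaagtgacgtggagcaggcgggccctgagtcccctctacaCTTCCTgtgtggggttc
Cd247, chr13:80576019-80576268, plus strand: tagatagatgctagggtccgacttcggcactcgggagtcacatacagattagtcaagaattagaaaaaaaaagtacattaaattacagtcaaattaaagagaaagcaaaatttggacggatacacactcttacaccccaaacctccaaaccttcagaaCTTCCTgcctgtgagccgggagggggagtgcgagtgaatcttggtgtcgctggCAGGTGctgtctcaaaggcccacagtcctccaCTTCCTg
Capitals mark matches, on either strand, to 3 motifs spelled AGGAAG (an ETS-type motif, CTTCCT on the other strand), CACCTG (an E-box, CAGGTG on the other strand) and TGTGGT (a RUNX-type motif, ACCACA on the other strand), and no matches overlapped in these windows. The ETS-type motif stood in each of the 4 promoters, once in Cd3d, Cd3g and Cd3e and at 2 positions in Cd247, the E-box in Cd3g and Cd247, and the RUNX-type motif in none. Over the 30 promoters of the 29 tested genes the ETS-type motif was found in 17 (56.7%), the E-box in 7 (23.3%) and the RUNX-type motif in 5 (16.7%). Among all 33469 promoters of the table the same motifs were found in 29.5%, 15.9% and 14.5%. Cd3g and Cd3d lie head to head on chromosome 8 with starts 1601 bases apart, and Cd3e lies 26251 bases from Cd3d. These matches are a description of letters, and no binding was measured.

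Each array gave 1 value per gene, the log2 of the signal relative to that array's 75th percentile. Between 70.6% and 79.8% of probes were well above background, and no probe was saturated. Keratins and other squamous markers were above background on all 25 arrays for each of the 9 tested, and so were 8 fibroblast, 9 muscle and 10 macrophage markers, so the RNA was not from epithelial cells alone. The arrays lay on 4 slides. All alpha-tocopherol rats were on slide 1 with delta-tocopherol rats 1 to 3. The other delta-tocopherol rats were on slide 2 with all gamma-enriched rats and Control rat 1. The other 4 Control rats shared slide 3 with NMBA rats 1 to 4, and NMBA rat 5 was on slide 4. No slide held both NMBA rats and rats given tocopherols, and Control rat 1 alone links their slides. Of the 7 genes not tested, Ubash3a, Tigit, Tcf7 and Bcl11b had no named probe. Cd96 was above background on 3 arrays, Cd40lg on 1 and Cd28 on none, while Ctla4, just inside the limit, was above background on 5.

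A few rats stood apart across the T cell genes. NMBA rat 4 was the lowest NMBA rat in 31 of 36 genes, alpha-tocopherol rat 4 the lowest of its group in 29, and gamma-enriched rat 3 the lowest of its group in 22. Control rat 3 was the highest Control rat in 24 genes and delta-tocopherol rat 1 the highest of its group in 23. The mean deviation of the 36 genes from their means over all arrays was −0.05 in NMBA rat 4 and between 0.93 and 1.33 in the other NMBA rats. It ranged from −0.47 to 0.23 in Control rats, from −0.80 to 0.39 in alpha-tocopherol rats, from −0.59 to 0.39 in delta-tocopherol rats and from −0.94 to −0.14 in gamma-enriched rats. The heat map shows these rats as columns that differ from their neighbours.

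**Figure D1:**
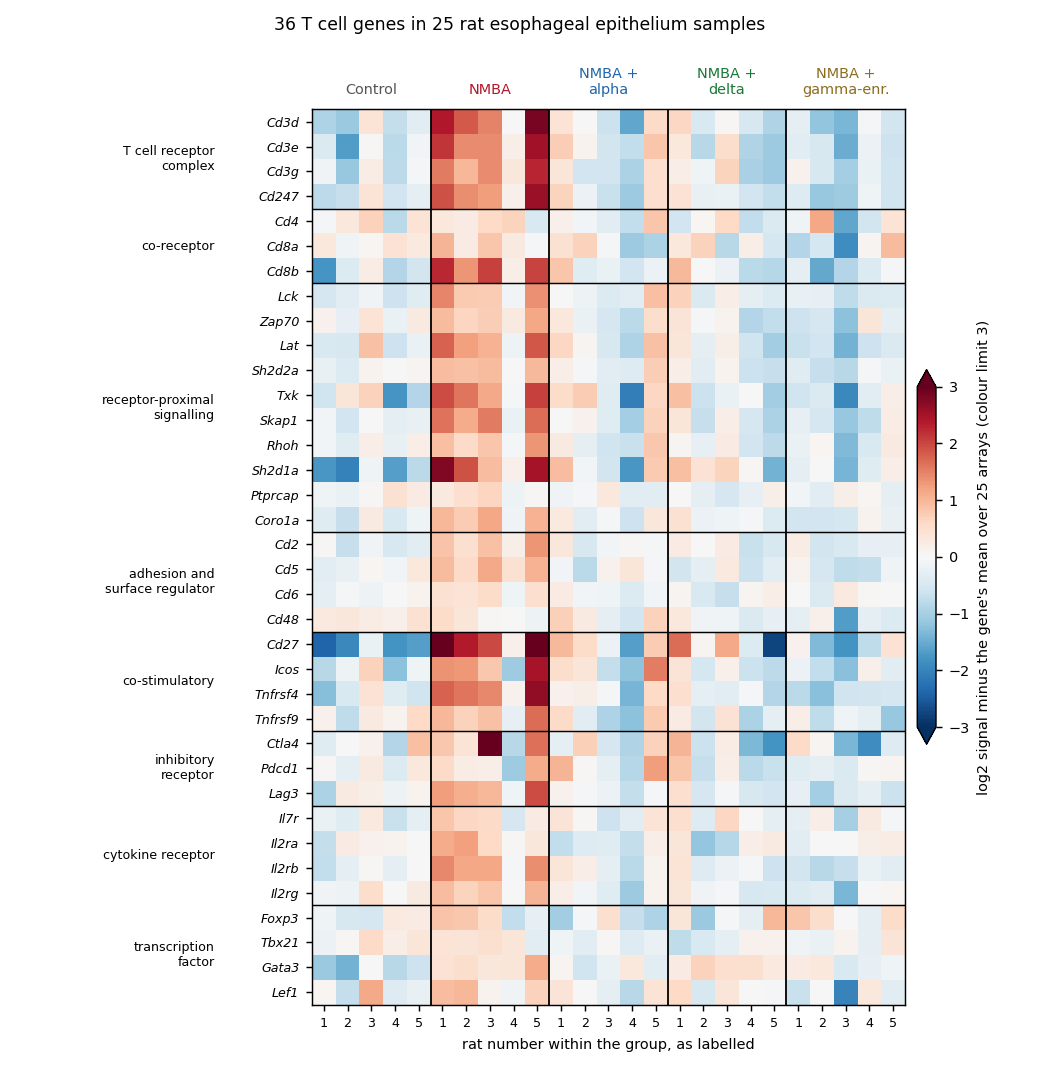
Log2 signal of the 36 T cell genes (rows, by role) in 25 rats (columns, by group and rat number), each minus the gene's mean over 25 arrays; red is higher and blue lower. NMBA rats 1, 2, 3 and 5 are red over most rows, NMBA rat 4 is pale, and alpha-tocopherol rat 4 and gamma-enriched rat 3 are blue.

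NMBA was compared with Control for the effect of the carcinogen alone. All 4 CD3 chains, the CD8 beta chain, the kinase Lck, the co-stimulatory receptors Cd27 and Tnfrsf4, the interleukin 2 receptor beta chain and the transcription factor Gata3 were higher in NMBA rats, while the co-receptors Cd4 and Cd8a and the regulatory T cell factor Foxp3 were not called. In limma with Benjamini-Hochberg adjustment over 12343 genes at a threshold of 0.05, 16 of the 36 genes rose (44.4%), against 1.36% of all genes tested, and none fell, against 0.235%. The difference of means was above 0 in 35 of 36 genes, against 59.5% of all genes, with a median of 1.05 log2 units against 0.07. Every NMBA rat lay above every Control rat in 8 of 36 genes, against 2.58% of all genes. NMBA had the highest mean of the 5 groups in 33 of 36 genes, against 36.4% of all genes. Differences below are log2 values ± SE between means of 5 rats. The p-values set each difference against the spread between the labelled rats. That spread was estimated in limma from all 5 groups, with information from all genes.

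Among the CD3 chains, Cd3d stood at −2.59, −2.77, −1.24, −2.36 and −2.0 in Control rats 1 to 5 and at 0.74, 0.19, −0.17, −1.64 and 1.19 in NMBA rats 1 to 5. Its signal rose by 2.25 ± 0.46, or 4.76-fold (adjusted p = 0.0101). NMBA rat 4 lay below Control rat 3, so the groups overlapped. Cd3e gave −5.04, −6.28, −4.56, −5.40 and −4.69 in Control rats and −2.47, −3.20, −3.18, −4.41 and −2.08 in NMBA rats, a rise of 2.13 ± 0.43 (adjusted p = 0.0101). For Cd3g the Control rats gave −1.84, −2.87, −1.50, −2.51 and −1.78 and the NMBA rats −0.16, −0.74, −0.32, −1.40 and 0.56, a rise of 1.69 ± 0.38 (adjusted p = 0.021). Neither Cd3e nor Cd3g overlapped between the groups. Cd247, the zeta chain that carries most of the signalling motifs, stood at −4.88, −4.78, −3.69, −4.67 and −4.37 in Control rats and at −2.20, −2.70, −2.84, −3.95 and −1.52 in NMBA rats. It rose by 1.84 ± 0.38 (adjusted p = 0.0106), with NMBA rat 4 below Control rat 3.

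The 3 co-receptor genes differed in their values. Cd8b, the beta chain of the CD8 heterodimer of cytotoxic T cells, stood at −7.93, −6.56, −5.92, −7.02 and −6.71 in Control rats, 1 of them above background, and at −3.89, −4.84, −4.10, −5.96 and −4.14 in NMBA rats, all above background. It rose by a measured 2.24 ± 0.42 (adjusted p = 0.00507), a size that rests on Control values mostly below background, and NMBA rat 4 lay just below Control rat 3. Cd8a, the alpha chain of the same co-receptor, was above background on all 25 arrays and stood at −2.43, −2.84, −2.67, −2.30 and −2.43 in Control rats and −1.72, −2.48, −1.91, −2.47 and −2.77 in NMBA rats. Its difference of 0.27 ± 0.41 was not called (adjusted p = 0.809). Cd4, the co-receptor of helper T cells, gave 0.16 ± 0.40 and was above background in 2 of 5 NMBA and 4 of 5 Control rats. So within CD8 the beta chain passed the test and the alpha chain did not. On the processed signal the intervals of their differences, 1.38 to 3.11 and −0.59 to 1.12, did not overlap, but the first rests on Control values mostly below background. Under normexp background correction, given below, the Cd8b difference was smaller and lay within this Cd8a interval. That interval is from the processed signal, so the Cd8b value and the interval are on unlike scales. Whether the rises of the alpha and beta chains differed was not tested. The plot of the CD3 chains and co-receptors by rat shows both chains.

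**Figure D2:**
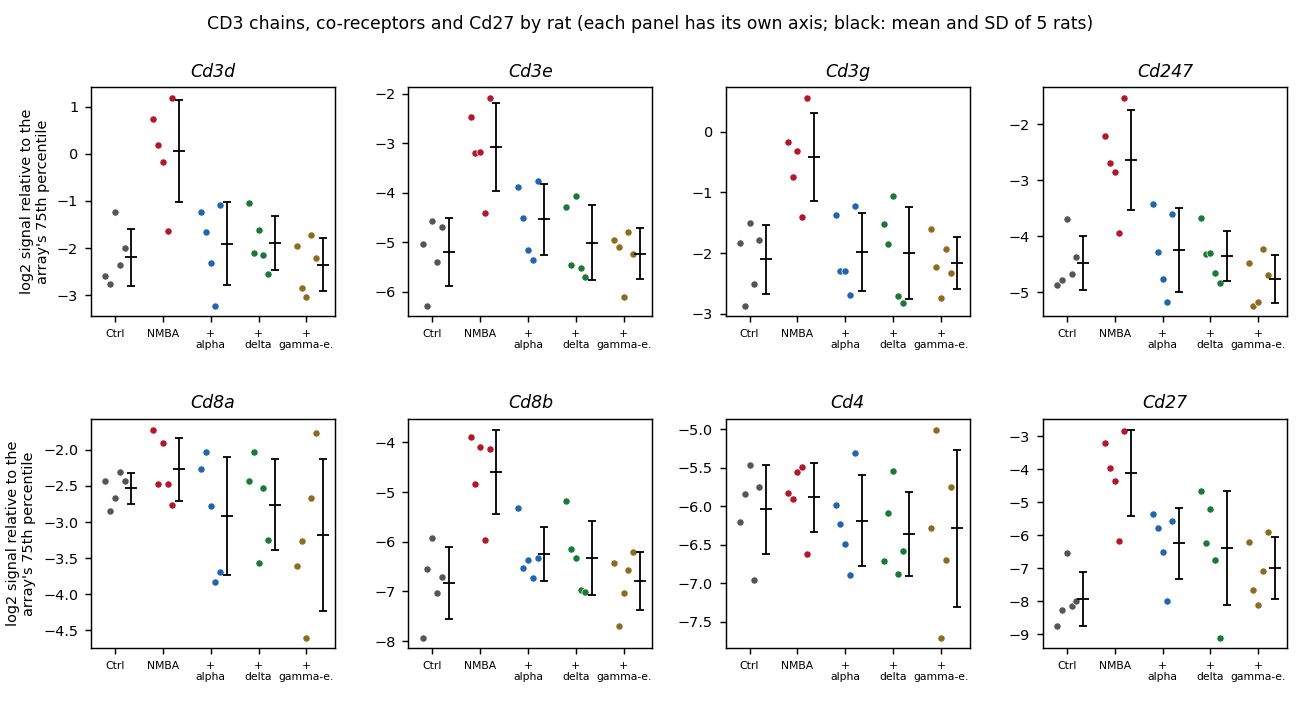
Log2 signal relative to the array's 75th percentile (vertical axis, own scale in each panel) of the 4 CD3 chains, the co-receptors Cd8a, Cd8b and Cd4, and Cd27 in each rat of the 5 groups (horizontal axis); points are rats 1 to 5 from left to right and black bars the mean and SD of 5 rats. NMBA rats are high in the CD3 chains, Cd8b and Cd27 but for rat 4, and overlap the other groups in Cd8a and Cd4.

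Of 10 tested proteins that act close to the receptor, 4 rose: Lck, Skap1, Sh2d1a and Coro1a. Lck, the kinase that phosphorylates the CD3 chains, stood at −4.41, −4.24, −4.00, −4.52 and −4.27 in Control rats and at −2.44, −3.11, −3.14, −3.97 and −2.53 in NMBA rats. Its rise was 1.25 ± 0.27 (adjusted p = 0.0154), and the groups did not overlap. Skap1, an adaptor that couples the receptor to integrin adhesion, gave −4.92, −5.42, −4.83, −5.14 and −5.07 in Control and −3.22, −3.72, −3.28, −5.03 and −3.16 in NMBA rats. This was a rise of 1.39 ± 0.35 (adjusted p = 0.037), and NMBA rat 4 lay within the Control range. Sh2d1a, the adaptor SAP of the SLAM family receptors, was above background in all NMBA rats, at −3.77, −4.64, −5.62, −6.40 and −4.06, and in none of the Control rats, at −8.29, −8.57, −6.69, −8.20 and −7.36. Its measured difference was 2.92 ± 0.54 (adjusted p = 0.00507). No Control array measured it above background. With each Control value raised to at least its array's lowest signal above background, the rise of the processed signal was 5.5-fold. This is not a lower limit, since a probe below background can have a higher signal, as Ctla4 did at −6.14 in Control rat 5. Normexp background correction gave a smaller rise of 1.19 log2 units. Coro1a, an actin regulator of leukocytes needed for T cell survival and migration, stood at 0.95, 0.63, 1.60, 0.87 and 1.21 in Control and 2.32, 2.10, 2.48, 1.23 and 2.36 in NMBA rats. It rose by 1.05 ± 0.24 (adjusted p = 0.0215), with NMBA rat 4 inside the Control range. Ptprcap, which binds the leukocyte phosphatase CD45, gave 2.87, 2.79, 3.02, 3.45 and 3.24 in Control and 3.28, 3.50, 3.62, 2.85 and 3.04 in NMBA rats and was not called (0.19 ± 0.17). The kinase Zap70, the adaptors Lat and Sh2d2a, the Tec family kinase Txk and the GTPase Rhoh stood between 0.68 and 1.78 without passing. Of these, Sh2d2a (0.84 ± 0.23, adjusted p = 0.0759) and Lat (1.33 ± 0.38, adjusted p = 0.087) came nearest to the threshold.

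Among adhesion and surface regulators 2 of 4 tested genes rose. Cd2, an adhesion receptor of T and NK cells, stood at −2.30, −3.02, −2.44, −2.81 and −2.64 in Control rats and at −1.49, −1.85, −1.45, −2.16 and −1.02 in NMBA rats, a rise of 1.05 ± 0.22 (adjusted p = 0.0125). Cd5, which dampens receptor signalling, gave −4.66, −4.55, −4.28, −4.41 and −4.02 in Control rats and −3.37, −3.76, −3.20, −3.87 and −3.29 in NMBA rats, a rise of 0.89 ± 0.22 (adjusted p = 0.0354). In both genes all 5 NMBA rats lay above all 5 Control rats. Cd48, a ligand of SLAM family receptors that most leukocytes carry, stood at 1.84, 1.88, 1.76, 1.68 and 1.996 in Control and 2.08, 1.89, 1.56, 1.52 and 1.38 in NMBA rats. With −0.14 ± 0.27 it was the 1 gene of the 36 whose mean was lower in NMBA rats, and it was not called. Cd6, a receptor related to Cd5, gave 0.43 ± 0.18 on its brightest probe. Its other 2 probes gave 1.66 ± 0.54 (adjusted p = 0.153) and 0.79, so they differed in size and none was called.

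Of 4 co-stimulatory receptors tested, Cd27 and Tnfrsf4 rose, both members of the tumour necrosis factor receptor family. Cd27, which is carried by naive and memory T cells, was above background in 4 of 5 NMBA rats and no Control rat. It stood at −3.20, −3.95, −4.35, −6.19 and −2.84 in NMBA and at −8.74, −8.28, −6.55, −8.14 and −7.99 in Control rats, a measured difference of 3.83 ± 0.72 (adjusted p = 0.00524). With Control values raised as for Sh2d1a, the rise of the processed signal was 9.36-fold, not a lower limit either. NMBA rat 4, the 1 below background, was in the mean. Normexp correction gave a smaller rise of 1.71 log2 units. The groups did not overlap. Tnfrsf4 (OX40), which appears on activated T cells, stood at −4.47, −3.63, −2.75, −3.56 and −3.79 in Control and −1.42, −1.59, −1.76, −3.07 and −0.53 in NMBA rats. Its rise was 1.97 ± 0.39 (adjusted p = 0.00818), with NMBA rat 4 below Control rat 3. Icos, a co-stimulatory receptor of the CD28 family, stood at 1.30 ± 0.53 and Tnfrsf9 (4-1BB) at 0.73 ± 0.39, neither called.

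Lag3 was called among the 3 inhibitory receptors tested. Lag3, which binds MHC class II, stood at −6.15, −4.95, −5.04, −5.37 and −5.10 in Control rats and at −3.95, −4.11, −4.21, −5.33 and −3.26 in NMBA rats. It narrowly passed, with a rise of 1.15 ± 0.30 (adjusted p = 0.0488) and NMBA rat 4 within the Control range. Ctla4, which competes with CD28, was above background in 2 NMBA rats and no Control rat, with 1.23 ± 0.67 (adjusted p = 0.446). Pdcd1 (PD-1) stood at 0.22 ± 0.39 and was above background in 2 of 5 NMBA and 5 of 5 Control rats. Neither Ctla4 nor Pdcd1 was called.

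The interleukin 2 receptor beta chain Il2rb, which also serves interleukin 15, rose alone among the 4 cytokine receptor genes. It stood at −3.30, −2.86, −2.54, −2.84 and −2.55 in Control and −1.12, −1.40, −1.41, −2.64 and −1.18 in NMBA rats, a rise of 1.27 ± 0.26 (adjusted p = 0.011) in which NMBA rat 4 overlapped the Control rats. Il2rg, the common gamma chain, stood at −0.36, −0.40, 0.27, −0.26 and 0.02 in Control and 0.67, 0.41, 0.57, −0.23 and 0.77 in NMBA rats and was not called (0.59 ± 0.27). Il2ra, the chain that gives high affinity for interleukin 2, stood at 0.71 ± 0.29 and Il7r, the interleukin 7 receptor of naive and memory T cells, at 0.60 ± 0.28.

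Gata3, a factor of T cell development and type 2 helper cells that squamous epithelia also express, had the smallest adjusted p of the 36 genes in this comparison. It stood at −5.39, −5.69, −4.27, −5.11 and −4.90 in Control rats and at −3.85, −3.75, −3.94, −3.92 and −3.15 in NMBA rats, where NMBA rat 4 was not low. The rise was 1.35 ± 0.23 (adjusted p = 0.00212), and the groups did not overlap. Tbx21 (T-bet), the factor of type 1 helper and cytotoxic cells, stood at −2.22, −2.01, −1.46, −1.85 and −1.68 in Control and −1.63, −1.64, −1.54, −1.67 and −2.35 in NMBA rats, a difference of 0.08 ± 0.19. Foxp3 at 0.37 ± 0.37 and Lef1, a factor of naive T cells, at 0.55 ± 0.38 were not called either.

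The slides bear on this comparison. With slide as a fixed block 3 genes stayed called, Cd2 at 0.99, Cd27 at 3.32 and Gata3 at 1.13, and the median of the 36 genes was 0.78. On slide 3 alone, with 4 rats a group, the median was also 0.78 and limma called 0 genes, while 22 had an unadjusted p below 0.05. With the block over all slides the CD3 chains stood at 1.87, 1.92, 1.51 and 1.46 for Cd3d, Cd3e, Cd3g and Cd247, against 2.25, 2.13, 1.69 and 1.84 without it. Without NMBA rat 5, which lay alone on slide 4, 9 genes were called, without NMBA rat 1 it was 10, and without NMBA rat 4 it was 20. With only these 10 rats in the fit 5 genes were called, Cd8b, Sh2d1a, Cd5, Cd27 and Gata3. In each of the 10 fits without 1 rat, Cd3d, Cd3e, Cd247, Cd8b, Sh2d1a, Cd27, Tnfrsf4, Il2rb and Gata3 were called, whereas among these fits Skap1 and Lag3 were called only without NMBA rat 4. With normexp background correction all 16 genes were called, but dim genes had smaller values: Cd27 1.71, Sh2d1a 1.19, Cd8b 0.97, Skap1 0.90 and Lag3 0.67.

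**Figure D3:**
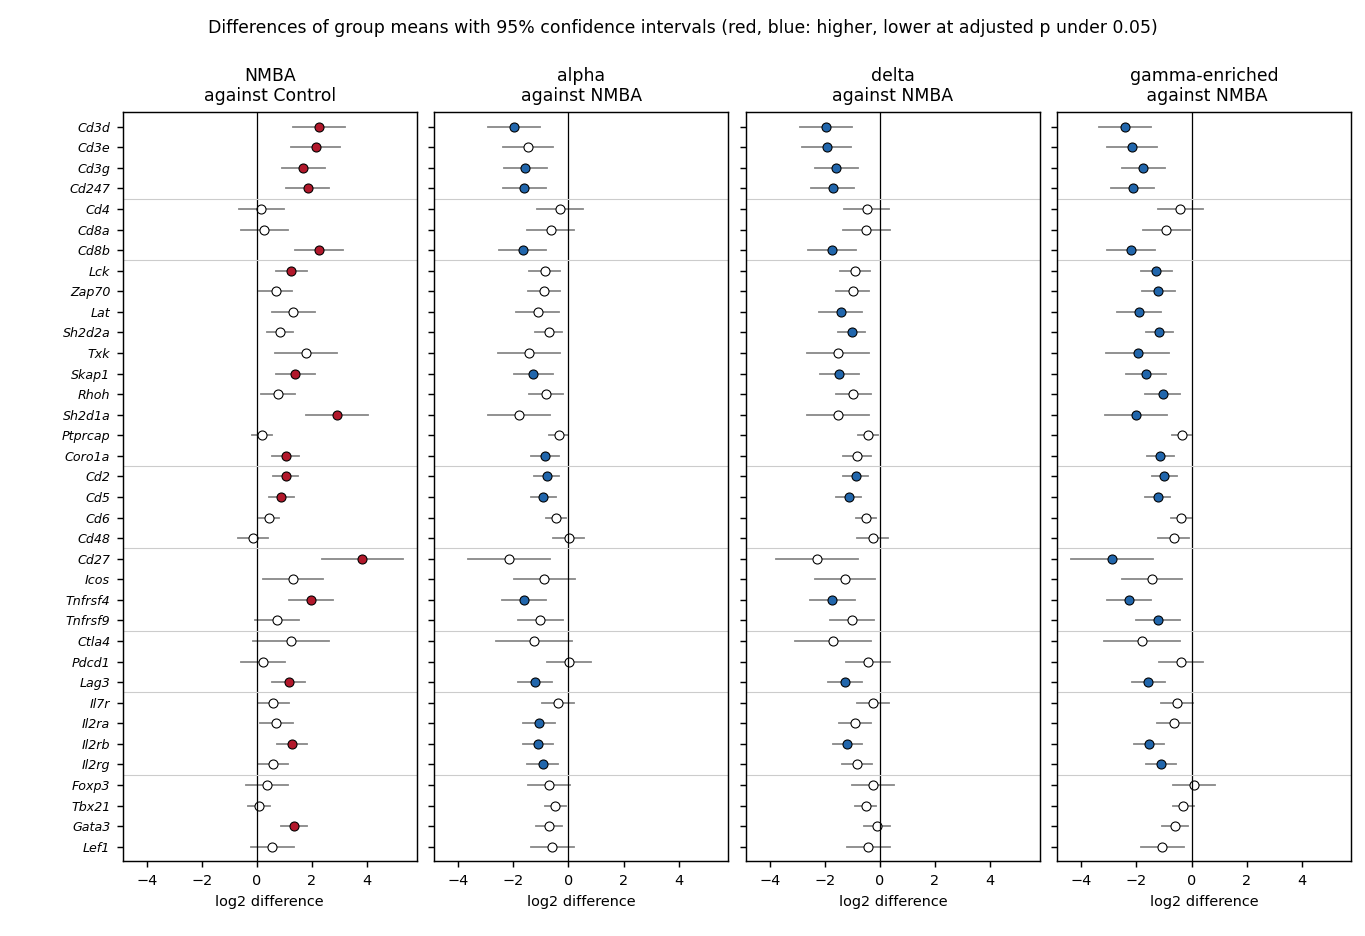
Difference of group means (horizontal axis, log2 units) with its 95% confidence interval for each of the 36 T cell genes (vertical axis, by role) in 4 comparisons; red and blue points are higher and lower at adjusted p under 0.05 in limma. The 4 CD3 chains, Cd8b, Tnfrsf4, Lag3 and Il2rb are red in NMBA against Control and lie left of 0 in the 3 tocopherol comparisons, which share the same NMBA rats.

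The comparisons of each tocopherol group with NMBA ask whether the diets changed these genes in rats given the carcinogen. The CD3 chains Cd3d, Cd3g and Cd247, the CD8 beta chain, the adaptor Skap1, the surface receptors Cd2 and Cd5, Tnfrsf4, Lag3 and Il2rb were lower than in NMBA rats in all 3 groups. In alpha-tocopherol rats 13 of 36 genes fell, against 2.68% of all genes tested, with 34 of 36 means lower (54.2% of all genes) and a median of −0.90 against −0.03 over all genes. In delta-tocopherol rats 13 fell, against 2.81%, with 36 of 36 means lower (59.4%) and a median of −1.002 against −0.08. In gamma-enriched rats 22 fell, against 8.4%, with 35 of 36 means lower (63.8%) and a median of −1.22 against −0.13. No gene of the list rose in any of the 3, against 1.25%, 0.405% and 1.39% of all genes. Groups did not overlap in 2 genes for alpha-tocopherol (Cd5 and Gata3), 1 for delta-tocopherol (Cd5) and 13 for the gamma-enriched mixture, against 3.05%, 4.67% and 5.91% of all genes. These comparisons share the 5 NMBA rats, so their values are given side by side and were not set against each other.

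Among the CD3 chains, Cd3d stood at −1.24, −1.66, −2.31, −3.22 and −1.08 in alpha-tocopherol rats 1 to 5, at −1.03, −2.10, −1.63, −2.15 and −2.55 in delta-tocopherol rats and at −1.95, −2.84, −3.02, −1.72 and −2.22 in gamma-enriched rats. It fell by 1.96 ± 0.46 with alpha-tocopherol (adjusted p = 0.0189), fell by 1.95 ± 0.46 with delta-tocopherol (adjusted p = 0.0256) and fell by 2.41 ± 0.46 with the gamma-enriched mixture (adjusted p = 0.00369). All 5 gamma-enriched rats lay below all NMBA rats, while the other groups reached above NMBA rat 4. Cd3e stood at −3.88, −4.51, −5.16, −5.35 and −3.77 in alpha-tocopherol, −4.29, −5.45, −4.07, −5.51 and −5.70 in delta-tocopherol and −4.95, −5.09, −6.10, −4.79 and −5.23 in gamma-enriched rats. The differences from NMBA were −1.47 ± 0.43 (adjusted p = 0.0574, not called), −1.94 ± 0.43 (adjusted p = 0.0235) and −2.16 ± 0.43 (adjusted p = 0.00417). Again only the gamma-enriched rats did not overlap with NMBA rats. Cd3g gave −1.37, −2.30, −2.30, −2.69 and −1.22 in alpha-tocopherol, −1.52, −1.85, −1.07, −2.71 and −2.82 in delta-tocopherol and −1.60, −2.22, −2.74, −1.94 and −2.33 in gamma-enriched rats. It differed from NMBA by −1.56 ± 0.38, −1.58 ± 0.38 and −1.75 ± 0.38, each called, the gamma-enriched rats again without overlap. For Cd247 the alpha-tocopherol rats gave −3.43, −4.28, −4.77, −5.18 and −3.60, the delta-tocopherol rats −3.67, −4.32, −4.30, −4.67 and −4.84 and the gamma-enriched rats −4.49, −5.25, −5.17, −4.23 and −4.70. Its differences of −1.61 ± 0.38, −1.72 ± 0.38 and −2.13 ± 0.38 were each called, and without overlap in gamma-enriched rats.

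Of the co-receptors, Cd8b was called in each comparison. It stood at −5.32, −6.53, −6.36, −6.73 and −6.32 in alpha-tocopherol, −5.17, −6.14, −6.32, −6.97 and −7.01 in delta-tocopherol and −6.44, −7.70, −7.04, −6.56 and −6.20 in gamma-enriched rats, where 4, 2 and 2 rats were above background. The differences were −1.67 ± 0.42 (adjusted p = 0.0279), −1.74 ± 0.42 (adjusted p = 0.0271) and −2.20 ± 0.42 (adjusted p = 0.00369). Cd8a stood at −2.27, −2.03, −2.78, −3.83 and −3.69 in alpha-tocopherol, −2.43, −2.03, −3.57, −2.53 and −3.25 in delta-tocopherol and −3.60, −3.26, −4.597, −2.66 and −1.77 in gamma-enriched rats. It spread widely within the gamma-enriched group, and its differences of −0.65 ± 0.41, −0.49 ± 0.41 and −0.91 ± 0.41 were not called. Cd4 gave −0.30 ± 0.40, −0.48 ± 0.40 and −0.41 ± 0.40, not called either.

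Close to the receptor, 2 of 10 genes fell with alpha-tocopherol, 3 with delta-tocopherol and 9 with the gamma-enriched mixture. Lck stood at −3.91, −4.05, −4.31, −4.25 and −3.01 in alpha-tocopherol, −3.21, −4.34, −3.69, −4.16 and −4.32 in delta-tocopherol and −4.11, −4.14, −4.67, −4.34 and −4.30 in gamma-enriched rats, and differed by −0.86 ± 0.27, −0.90 ± 0.27 and −1.27 ± 0.27. Only the last was called (adjusted p = 0.00604), with no overlap. Skap1 gave −4.84, −4.72, −5.21, −5.87 and −4.14 in alpha-tocopherol, −4.47, −5.54, −4.64, −5.35 and −5.79 in delta-tocopherol and −5.08, −5.35, −5.97, −5.61 and −4.62 in gamma-enriched rats, and fell in each comparison with differences of −1.27 ± 0.35, −1.48 ± 0.35 and −1.64 ± 0.35. Sh2d1a was at −5.63, −6.63, −7.10, −8.29 and −5.77 in alpha-tocopherol, −5.64, −6.10, −5.87, −6.51 and −7.97 in delta-tocopherol and −6.81, −6.56, −7.95, −6.90 and −6.35 in gamma-enriched rats, with differences of −1.79 ± 0.54, −1.52 ± 0.54 and −2.02 ± 0.54, the last called (adjusted p = 0.0216). These 3 genes overlapped with NMBA rats in the alpha- and delta-tocopherol groups, and Skap1 and Sh2d1a in the gamma-enriched group as well, where rat 5 lay above NMBA rat 4. Coro1a stood at 1.61, 0.99, 1.27, 0.70 and 1.67 in alpha-tocopherol, 1.78, 1.14, 1.20, 1.28 and 0.92 in delta-tocopherol and 0.76, 0.76, 0.81, 1.42 and 1.12 in gamma-enriched rats. It fell with alpha-tocopherol (−0.85 ± 0.24) and the gamma-enriched mixture (−1.13 ± 0.24) and stood at −0.83 ± 0.24 with delta-tocopherol (adjusted p = 0.0514). Ptprcap stood at 2.88, 2.96, 3.30, 2.68 and 2.68 in alpha-tocopherol, 3.004, 2.73, 2.48, 2.74 and 3.18 in delta-tocopherol and 2.90, 2.67, 3.16, 3.06 and 2.70 in gamma-enriched rats and was not called in any of the 3, with differences between −0.43 and −0.36. Lat (−1.43 ± 0.38) and Sh2d2a (−1.02 ± 0.23) fell with delta-tocopherol. In gamma-enriched rats Lat (−1.90 ± 0.38), Txk (−1.96 ± 0.55), Zap70 (−1.21 ± 0.29), Sh2d2a (−1.17 ± 0.23) and Rhoh (−1.05 ± 0.31) fell as well, so that Ptprcap was the 1 gene of the 10 not called there.

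Of the surface regulators, Cd2 and Cd5 fell in all 3 groups. Cd2 stood at −2.01, −2.81, −2.42, −2.29 and −2.40 in alpha-tocopherol, −2.08, −2.34, −2.09, −3.01 and −2.81 in delta-tocopherol and −2.10, −2.90, −2.80, −2.58 and −2.57 in gamma-enriched rats, with differences of −0.79 ± 0.22, −0.87 ± 0.22 and −0.996 ± 0.22. Each group had rats at or above NMBA rat 4, the lowest of its group. Cd5 stood at −4.41, −5.14, −4.20, −3.97 and −4.37 in alpha-tocopherol, −4.88, −4.62, −4.03, −4.99 and −4.67 in delta-tocopherol and −4.23, −4.83, −5.09, −5.05 and −4.43 in gamma-enriched rats, with differences of −0.92 ± 0.22 (adjusted p = 0.0215), −1.14 ± 0.22 (adjusted p = 0.0156) and −1.23 ± 0.22 (adjusted p = 0.00316). It was the 1 gene of the list called in all 3 comparisons in which no rat of any tocopherol group reached the NMBA range. Cd48 stood at 2.25, 1.80, 1.25, 0.96 and 2.24 in alpha-tocopherol, 1.86, 1.42, 1.42, 1.1 and 1.29 in delta-tocopherol and 1.28, 1.69, −0.14, 1.23 and 1.11 in gamma-enriched rats, where gamma-enriched rat 3 was far below the others, and none of its differences was called. The brightest Cd6 probe gave −0.45 ± 0.18, −0.52 ± 0.18 and −0.38 ± 0.18, not called. A dimmer Cd6 probe was called with alpha-tocopherol (−1.96 ± 0.54, adjusted p = 0.0432) and the gamma-enriched mixture (−2.44, adjusted p = 0.00753). The third probe was called with the gamma-enriched mixture as well (−1.05, adjusted p = 0.0115), so 2 of 3 probes were called there and the call for Cd6 depends on the probe.

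Among co-stimulatory receptors, Tnfrsf4 stood at −3.05, −3.02, −3.24, −4.58 and −2.58 in alpha-tocopherol, −2.68, −3.49, −3.53, −3.22 and −4.07 in delta-tocopherol and −3.99, −4.44, −3.79, −3.74 and −3.70 in gamma-enriched rats. It fell in each, by 1.62 ± 0.39, by 1.72 ± 0.39 and by 2.26 ± 0.39, and no gamma-enriched rat reached the NMBA range. Cd27 was above background in 4 alpha-tocopherol, 3 delta-tocopherol and 2 gamma-enriched rats. It stood at −5.37, −5.79, −6.52, −8.00 and −5.58 in alpha-tocopherol, −4.66, −6.25, −5.20, −6.76 and −9.10 in delta-tocopherol and −6.21, −7.67, −8.13, −7.09 and −5.92 in gamma-enriched rats, and its spread was widest in the delta-tocopherol rats, with an SD of 1.73. The differences were −2.15 ± 0.72 (adjusted p = 0.0979), −2.29 ± 0.72 (adjusted p = 0.0711) and −2.90 ± 0.72 (adjusted p = 0.0134), of which the last was called. Tnfrsf9 fell with the gamma-enriched mixture (−1.22 ± 0.39, adjusted p = 0.0483), and Icos was not called in any group (−0.87, −1.26 and −1.45).

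Lag3 fell in all 3 groups and was at −5.07, −5.25, −5.38, −5.91 and −5.26 in alpha-tocopherol, −4.71, −5.70, −5.26, −5.69 and −5.79 in delta-tocopherol and −5.45, −6.23, −5.64, −5.50 and −5.85 in gamma-enriched rats. Its differences were −1.20 ± 0.30, −1.26 ± 0.30 and −1.56 ± 0.30, the last with no overlap. Il2rb stood at −2.20, −2.37, −2.85, −3.38 and −2.47 in alpha-tocopherol, −2.17, −2.97, −2.74, −2.61 and −3.18 in delta-tocopherol and −3.13, −3.39, −3.25, −2.78 and −2.91 in gamma-enriched rats and fell in all 3 groups as well, with differences of −1.103 ± 0.26, −1.18 ± 0.26 and −1.54 ± 0.26. In gamma-enriched rats its adjusted p of 0.00302 was the smallest of the 36 genes. Il2rg stood at −0.05, −0.33, −0.61, −1.34 and −0.15 in alpha-tocopherol, 0.11, −0.36, −0.28, −0.74 and −0.71 in delta-tocopherol and −0.67, −0.59, −1.62, −0.24 and −0.19 in gamma-enriched rats, and fell with alpha-tocopherol (−0.94 ± 0.27) and the gamma-enriched mixture (−1.101 ± 0.27). Il2ra fell with alpha-tocopherol (−1.07 ± 0.29, adjusted p = 0.0378), where 4 of 5 rats were above background. Ctla4, Pdcd1 and Il7r were not called in any of the 3 groups.

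The transcription factors were not called in any tocopherol group. Gata3 stood at −4.20, −4.87, −4.47, −3.96 and −4.62 in alpha-tocopherol, −4.03, −3.57, −3.77, −3.80 and −3.98 in delta-tocopherol and −4.02, −3.95, −4.72, −4.52 and −4.39 in gamma-enriched rats. Its differences from NMBA were −0.70 ± 0.23, −0.11 ± 0.23 and −0.60 ± 0.23, and 3 of the 5 delta-tocopherol rats lay within the NMBA range. Tbx21 stood at −2.16, −2.37, −1.99, −2.43 and −2.23 in alpha-tocopherol, −2.79, −2.49, −2.33, −1.90 and −1.90 in delta-tocopherol and −2.15, −2.23, −1.94, −2.32 and −1.66 in gamma-enriched rats, with differences of −0.47 ± 0.19, −0.52 ± 0.19 and −0.29 ± 0.19. Foxp3 gave −0.70 ± 0.37, −0.26 ± 0.37 and 0.08 ± 0.37, so that in gamma-enriched rats it was the 1 gene of the list with a mean above that of NMBA rats. Lef1 at −1.06 ± 0.38 in gamma-enriched rats came nearest to the threshold (adjusted p = 0.0734).

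The slides bear on these falls as well. Since no slide held NMBA rats and tocopherol rats together, the fit with slide as a fixed block rests on Control rat 1 for its link. In that fit limma called 0 of 36 genes in each of the 3 comparisons (6, 6 and 5 at an unadjusted p below 0.05), while the medians were −1.101, −0.90 and −0.94. The fall of Lag3 shrank to −0.45, −0.30 and −0.29, that of Tnfrsf4 to −0.71, −0.65 and −0.94, and that of Cd8b in gamma-enriched rats to −0.72. Cd3d stood at −1.95, −1.63 and −1.63 and Cd5 at −0.84, −0.93 and −0.83 in the same fit, and Il2ra with alpha-tocopherol turned to 0.48. With slide as a random block the counts were 15, 17 and 23, but the correlation estimated within slides was −0.0253, so that fit hardly adjusted for slide. Slide and tocopherol diet cannot be told apart beyond this link. Control rat 1, on slide 2 with all gamma-enriched rats, was the lowest Control rat in 10 of the 36 genes. Control rat 2, on slide 3, was lowest in 16. Control rat 1 was lowest for Il2rb (−3.30), Tnfrsf4 (−4.47), Lag3 (−6.15), Cd8b, Cd5, Cd247 and Cd27. The other Control rats stood at −2.86 or above for Il2rb, −3.79 for Tnfrsf4 and −5.37 for Lag3. For Cd3d, Cd3e and Cd3g Control rat 1 lay within their range. The part of slide 2 in these falls was not tested.

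Single rats also decided counts. For alpha-tocopherol against NMBA no gene was called without NMBA rat 1, against 1 without alpha-tocopherol rat 4, 5 without alpha-tocopherol rat 2, 6 without alpha-tocopherol rat 3, and 5, 3 and 5 without NMBA rats 2, 3 and 5. The 13 falls with delta-tocopherol became 0 without NMBA rat 3, 1 without delta-tocopherol rat 2 or NMBA rat 1 or 2, 5 and 4 without delta-tocopherol rats 4 and 5, and 6 without NMBA rat 5, but 25 without NMBA rat 4. In these fits the median difference kept its sign and lay between −1.1 and −0.80 for alpha-tocopherol and between −1.19 and −0.88 for delta-tocopherol. For the gamma-enriched mixture 18 to 25 genes were called whichever rat was left out. Without both alpha-tocopherol rat 4 and gamma-enriched rat 3, which were low in macrophage and fibroblast markers too, 2 genes fell with alpha-tocopherol and 21 with the gamma-enriched mixture. With only the 10 rats compared in the fit 0, 4 and 20 genes were called.

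Against Control, the tocopherol groups asked how near these rats came to untreated tissue. Alpha-tocopherol rats shared no slide with Control rats, and Control rat 1 alone shared a slide with delta-tocopherol and gamma-enriched rats. Slide and diet cannot be told apart here beyond that rat. In alpha-tocopherol rats limma called 0 of 36 genes (0.527% of all genes were higher and 0.154% lower), with 4 at an unadjusted p below 0.05 and a median of 0.12. In gamma-enriched rats it also called 0 (0.3% higher and 0.259% lower among all genes), with 2 at an unadjusted p below 0.05 and a median of −0.19. In delta-tocopherol rats 1 gene was higher, Gata3, at 1.24 ± 0.23 (adjusted p = 0.0127), against 0.138% of all genes, none was lower (0.0243%), and the median was −0.02. All 5 delta-tocopherol rats lay above all Control rats for Gata3, as they did for 1.61% of all genes, but the call was lost without Control rat 2 and with slide as a fixed block. The values for Cd3d were 0.29 ± 0.46, 0.30 ± 0.46 and −0.16 ± 0.46, with 95% intervals of −0.66 to 1.24, −0.65 to 1.25 and −1.11 to 0.79. Cd27, which no Control array measured above background, was not called in any of the 3 (adjusted p = 0.299, adjusted p = 0.451 and adjusted p = 0.495). Gamma-enriched rats had the lowest mean of the 5 groups in 23 of 36 genes, against 37.0% of all genes, and Control rats in 6, against 19% of all genes.

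The 3 tocopherol groups were compared in 3 pairs, with p-values adjusted over all genes and all 3 pairs. In limma 0 of the 36 genes were called in any pair. Adjusted within 1 pair, 0% of all genes were called for delta- against alpha-tocopherol and for gamma-enriched against delta-tocopherol, and 1.56% were lower and 0.138% higher for gamma-enriched against alpha-tocopherol. At an unadjusted p below 0.05 stood 1 gene between delta- and alpha-tocopherol (Gata3), 2 between gamma-enriched and alpha-tocopherol (Cd48 and Foxp3) and 1 between gamma-enriched and delta-tocopherol (Gata3). The smallest adjusted p was 0.464, 0.515 and 0.593. Gata3 differed by 0.59 ± 0.23 between delta- and alpha-tocopherol, with a 95% interval of 0.12 to 1.06. The CD3 chain Cd3d differed by 0.01 ± 0.46, −0.45 ± 0.46 and −0.46 ± 0.46 in the 3 pairs, with intervals of −0.94 to 0.96, −1.40 to 0.50 and −1.41 to 0.49. Over the 36 genes the median difference was −0.08, −0.34 and −0.25, and the median interval reached 0.739 log2 units to either side. Within slide 1 the median for delta- against alpha-tocopherol was 0.14 (3 against 5 rats), and within slide 2 that for gamma-enriched against delta-tocopherol was 0.03 (5 against 2 rats), so the sign of these small medians turned. With slide as a fixed block the median for gamma-enriched against alpha-tocopherol was 0.18. The interval lay within 1 log2 unit of 0 in 25, 17 and 21 genes, so for the others a change of 2-fold was not excluded. Alpha- and delta-tocopherol, which differ by methyl groups on the ring, gave no called difference in any gene tested, at doses that the labels do not name. The lack of calls between them is therefore not particular to the T cell genes.

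The other lists of T cell response genes were counted in NMBA against Control, where 1.36% of all genes were higher and 0.235% lower. Of 18 tested genes that act downstream of the T cell receptor none was called, with a median of 0.37. The phosphatase Ptpn22 stood at 1.18 ± 0.33 and the adaptor Sit1 at 0.98 ± 0.36. None of 9 ligands of co-stimulatory and inhibitory receptors and none of 8 T cell cytokines was called, and the interferon gamma probe did not pass the filter. Among 6 cytokines that act on T cells, Il18 rose by 0.68 ± 0.14 (adjusted p = 0.0127). Of 10 trafficking genes, Cxcr3, a chemokine receptor of activated T cells, rose by 1.90 ± 0.42 (adjusted p = 0.0185).

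In gamma-enriched against NMBA rats, where 8.4% of all genes were lower, 4 of the 18 downstream genes fell, among them Sit1 (−1.61 ± 0.36), Ptpn22 (−1.36 ± 0.33) and the phosphatase Ptpn6 (−0.47 ± 0.13). Of the ligands, Cd40 (−1.30 ± 0.25) and Cd80 (−1.04 ± 0.26) fell, and of the cytokines Il9 (−1.04 ± 0.24) and Il5. Il5 was above background on 3 of 5 NMBA arrays and no gamma-enriched array. It fell 3.59-fold with gamma-enriched values raised as for Sh2d1a, not a lower limit. Control rat 1, on slide 2 with all gamma-enriched rats, stood at −7.69 for Il5, −5.95 for Il9 and −6.01 for Cd80. The other Control rats stood at −5.52, −4.66 and −5.10 or above. Control rat 1 was the lowest Control rat for Cd40 (−2.69) and Cxcr3 (−4.44) as well. For these the other Control rats stood at −2.53 and −4.18 or above. For Sit1, Ptpn22, Itgb7 and Ccr6 Control rat 1 lay within the range of the other Control rats, and for Ptpn6 it was the highest. The part of slide 2 in these falls was not tested. Il13 was called as well, but its probe was not well above background in any NMBA or gamma-enriched rat. Of the trafficking genes, Cxcr3 (−1.73 ± 0.42), the integrin chain Itgb7 (−1.14 ± 0.24) and the receptor Ccr6 (−0.82 ± 0.25) fell, and no cytokine acting on T cells did. With alpha-tocopherol (2.68% of all genes lower) Sit1, Ptpn6 and Itgb7 fell, and with delta-tocopherol (2.81%) Ptpn6, Cd40, Cxcr3 and Itgb7, with Il13 called below background as above.

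Markers of other cells moved as follows beside the T cell genes. In NMBA against Control, with 1.36% of all genes higher and 0.235% lower, 3 of 6 cytotoxic granule genes rose, Gzmm by 2.30 ± 0.41, Gzmb by 2.35 ± 0.46 and Gzmk by 2.33 ± 0.57, and 1 of 5 NK cell markers, Klrb1a by 1.41 ± 0.25. T cells and NK cells share the granule genes. Of 8 pan-leukocyte markers none was called (median 0.46), and Ptprc, which encodes CD45, stood at 0.67 ± 0.37. None of 6 B cell (0.41), 10 macrophage (−0.14), 4 dendritic cell (0.19), 6 mast cell (−0.35), 5 neutrophil (0.04), 9 squamous (0.22), 8 fibroblast (−0.47), 5 endothelial (−0.20) or 9 muscle (−0.15) markers was called, with the median difference of each list in parentheses. The mean deviation of the macrophage list ranged from 0.04 to 0.37 in Control and from −0.59 to 0.52 in NMBA rats, and that of the fibroblast list from 0.26 to 0.71 and from −0.95 to 0.24. NMBA rat 5, alone on slide 4, was the lowest NMBA rat in both lists. It was the highest NMBA rat in 19 of the 36 T cell genes. The part of these lists in the T cell result was not tested.

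The same lists were counted in gamma-enriched against NMBA rats, where 8.4% of all genes were lower. Of the cytotoxic genes 6 of 6 fell, of the NK cell markers 4 of 5 and of the pan-leukocyte markers 4 of 8, with Gzmb at −2.10 ± 0.46, Klrb1a at −1.20 ± 0.25 and Laptm5 at −1.34 ± 0.26. Also lower were 1 of 6 B cell (Cd79b, above background in 2 of 5 NMBA and 0 of 5 gamma-enriched rats), 1 of 10 macrophage (C1qa, −0.93 ± 0.28), 1 of 4 dendritic cell (Zbtb46, −1.02 ± 0.21), 4 of 9 squamous (Krt4, Krt14, Krt13 and Tgm1, from −0.84 to −0.62) and 1 of 8 fibroblast markers (Dcn, −0.77 ± 0.22). In each of these genes Control rat 1, on slide 2 with all gamma-enriched rats, was the lowest Control rat. It stood at −7.77 for Cd79b, −5.09 for Zbtb46 and 4.67 for Krt13. The other Control rats stood at −6.43, −4.12 and 5.35 or above. Control rat 1 was lowest for the pan-leukocyte markers Laptm5 and Arhgdib and the NK cell marker Ncr3 too. It was not lowest for Gzmb or for the NK cell markers Klrb1a, Klrd1 and Klrk1. Ncr3 stood at −8.65 in Control rat 1 and at −6.27 or above in the other Control rats. Its probe was above background in 3 of 5 NMBA and 0 of 5 gamma-enriched rats. The part of slide 2 in these falls was not tested. No mast cell, neutrophil, endothelial or muscle marker was called. With alpha-tocopherol (2.68% of all genes lower) 5 of 6 cytotoxic, 2 of 8 pan-leukocyte, 1 of 5 NK cell and 1 of 9 squamous markers fell, and with delta-tocopherol (2.81%) 4, 1, 1 and 1 of the same lists, 1 B cell and 1 dendritic cell marker. The mean deviation of the macrophage list ranged from −1.74 to 0.38 in gamma-enriched rats, with gamma-enriched rat 3 lowest, and from −0.975 to 0.495 in alpha-tocopherol rats, with rat 4 lowest. That of the squamous list ranged from −0.40 to 0.28 in gamma-enriched and from −0.02 to 0.41 in NMBA rats. Whether these lists account for any of the T cell differences was not tested.

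**Figure D4:**
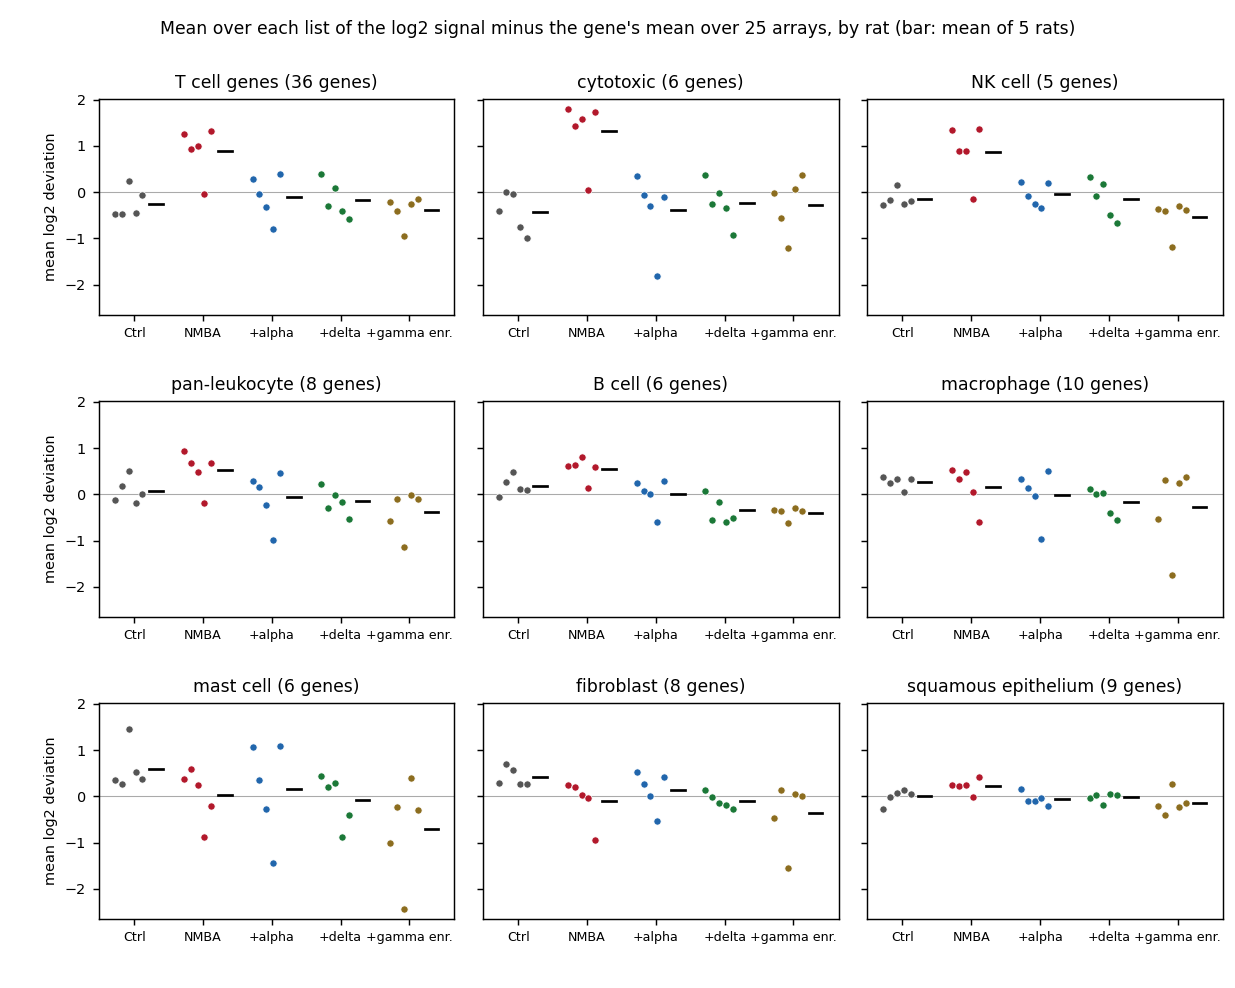
Mean over each marker list of the log2 signal minus the gene's mean over 25 arrays (vertical axis, log2 units) for each rat of the 5 groups (horizontal axis), bars marking group means. The T cell, cytotoxic and NK cell lists are high in NMBA rats but for rat 4, whereas the macrophage, mast cell and fibroblast lists are not, and gamma-enriched rat 3 is low in the leukocyte and stromal lists.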

How the data were processed

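RNA from esophageal epithelium of 25 rats was hybridised to 1-colour Cy3 Agilent arrays. The deposited scanner files hold intensity values that, per the file headers, Agilent Feature Extraction 11.5.1.1 made by background subtraction and detrending within each array (the submitters' processing notes name version 10.7). A deposited table of log2 values, which the authors normalized by a method the sources used here do not give, served as an alternative.

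Flagged outlier spots and control spots were left out, spots of a probe were averaged, and the log2 processed signal was taken minus each array's 75th percentile. Of 30367 probes 18355 were named through RefSeq accessions and 12012 were not. Probes well above background on at least 5 of 25 arrays were kept, with the brightest kept probe standing for a gene, which gave 12343 genes of 15443 named. Probe levels were never compared between genes.

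Groups came from the labels. All 5 groups were fitted in limma 3.58.1 (R 4.3.3) with lmFit and eBayes, two-sided, on 20 residual degrees of freedom, with Benjamini-Hochberg adjustment over all genes within a comparison at 0.05. The number of arrays limits the precision. The fit was tested on simulated data.

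The members, lists and tests were chosen with earlier results of these data known. Values in every rat are given for genes called in NMBA against Control and for the brightest gene of each role, and for other lists at most 4 called genes are named. Alternatives were quantile normalization, normexp background correction (offset 50), the deposited table, other filters (none, or 10 arrays), averaged probes, kept flagged spots, slide as a block or alone, array weights, the rat number as a block, only the groups compared, and leaving out each rat. Normexp used the median signal in place of the mean signal. Same-numbered rats are not described as related in the labels.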

Additional observations from a re-analysis of the deposited data

Results flagged for a closer look

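A value was listed here when 1 rat of a group of 5 lay so far from the nearest other rat that the gap passed 0.71 of the group's range, Dixon's 95% limit. This was met in 10 of 185 groups of values (5.41%), and chance alone gives about 1 in 20. NMBA rat 4 gave 4 of the 10. Its mean deviation over the 36 T cell genes was −0.04799, against 0.9307 in the next NMBA rat. Its signal was −3.626 for the adaptor Sh2d2a (next −2.737), −1.883 for the surface receptor Cd6 (next −1.343) and −2.637 for Il2rb (next −1.41).

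NMBA rat 5 was low for T-bet (Tbx21), at −2.345 against −1.666 in the next rat, and high for Gata3, at −3.153 against −3.751. Among Control rats, rat 3 was high for the adaptor Lat, at −2.858 against −3.927, and rat 1 was low for Il2ra, at −6.834 against −6.094. Alpha-tocopherol rat 1 was high for Cd8b, at −5.322 against −6.323. Gamma-enriched rat 3 was low for Lat, at −5.15 against −4.409.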

How the results depend on the processing

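The median difference of the 36 T cell genes stayed above 0 for NMBA against Control and below 0 for each tocopherol group against NMBA under every alternative run, while the number of genes called did not. Blocking on slide left 3 called genes in NMBA against Control (16 otherwise), 0 for alpha-tocopherol, 0 for delta-tocopherol and 0 for the gamma-enriched mixture against NMBA, and 0 for delta-tocopherol against Control. In that fit Il2ra with alpha-tocopherol reversed to 0.4793, and the median for gamma-enriched against alpha-tocopherol was 0.1793. Within slide 3 the count for NMBA against Control was 0. With only the groups compared in the fit, the counts were 5 for NMBA against Control, 0 for alpha- and 4 for delta-tocopherol against NMBA, and 0 for delta-tocopherol against Control. Array weights raised the counts to 27, 26 and 31 for NMBA against Control and for alpha- and delta-tocopherol against NMBA, and to 2 for gamma-enriched against Control. That fit gave NMBA rats 1 and 2 weights of 3.06 and 4.74 and NMBA rats 3, 4 and 5 weights of 0.59, 0.43 and 0.54, so its NMBA mean rests mostly on rats 1 and 2. Normexp correction gave 20 for alpha-tocopherol, and no filter on dim probes gave 21 for alpha- and 21 for delta-tocopherol against NMBA. Without alpha-tocopherol rat 4 and gamma-enriched rat 3, chosen after seeing the data, the alpha-tocopherol count was 2. Leaving out 1 rat gave 9 to 20 genes for NMBA against Control, 0 to 19 for alpha-tocopherol, 0 to 25 for delta-tocopherol and 18 to 25 for the gamma-enriched mixture against NMBA, and 0 to 1 for delta-tocopherol against Control. Fewer rats in a fit lower its power, and the other causes were not tested. Cd8b was above background on 14, Cd27 on 13, Sh2d1a on 16 and Ctla4 on 5 of 25 arrays, which limits what their differences can show.

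The rat numbers were not taken to pair the rats, since in none of the 10 comparisons did every pair of same-numbered rats correlate above 0.1. The correlations ran from −0.371 to −0.0176 in NMBA against Control, from −0.0563 to 0.413 in alpha-tocopherol against NMBA and from −0.311 to 0.529 in alpha-tocopherol against Control. At most 3 of 5 pairs passed 0.1 (gamma-enriched against Control), and at most 2 of 5 rats correlated best with their own number (alpha-tocopherol against Control). With the rat number as a replicate block 15 genes were called in NMBA against Control, 10, 13 and 22 for alpha-tocopherol, delta-tocopherol and the gamma-enriched mixture against NMBA, and 0 for delta-tocopherol against Control.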
